A study of Mus musculus with 18 samples.

Results

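Integrin αV, the product of Itgav, is a receptor chain that reaches the cell surface only as a pair with a β chain. The genes described here are Itgav and 4 β chains that can pair with it, Itgb1, Itgb3, Itgb5 and Itgb8, 5 of the 57180 genes in the deposited table, and they were taken by gene name. All 5 passed the filter on low counts and are among the 15832 genes tested. A further αV partner, Itgb6, held between 0 and 7 counts per library and was not tested.

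RNA was sequenced from smooth muscle cells isolated from the thoracic aorta of C57BL/6 mice. The cells were transfected with an siRNA and then stimulated. The 6 groups of 3 libraries were scramble siRNA (a control sequence meant to hit no gene) and Itgav siRNA, each left unstimulated, given TGF-β or given PDGF-BB. The sources used here do not give the animals' age, the doses, the times, the siRNA sequences or whether replicates were separate cultures. If they were not, the p-values rest on technical spread alone. An siRNA lowers the RNA and need not remove it, and other effects of the same siRNA cannot be told apart from the loss of Itgav.

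Integrins couple the matrix outside a cell to actin inside it. The αV pairs bind proteins that carry an arginine-glycine-aspartate motif, such as vitronectin, fibronectin and osteopontin, and some of them bind latent TGF-β. The β1 chain pairs with many other α chains, and β3 also with the platelet chain αIIb, whereas β5, β6 and β8 are known to pair with αV alone. In smooth muscle, TGF-β is known as an inducer of matrix and contractile genes, whereas PDGF-BB is known to shift the cells away from contraction.

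The deposited counts totalled 17705072 to 21592916 per library. All 8 smooth muscle markers were present in every library, with a summed level of 411 to 7181 CPM (counts scaled to the TMM-adjusted library total). Acta2 stood at 121 to 4456, Tagln at 71.2 to 2304, Smtn at 118 to 170 and Lmod1 at 36.2 to 145 CPM. Myh11, Cnn1, Myocd and Mylk did not exceed 51.9 CPM. The 10 adventitial fibroblast markers summed to 809 to 1173 CPM, of which Gsn alone held 683 to 993 CPM. In siRNA libraries with PDGF-BB their sum, 1122 to 1173 CPM, was above the smooth muscle sum of 411 to 421 CPM. The 10 endothelial markers were also present in every library, with a summed level of 86.1 to 143 CPM, but their levels differed. Pecam1 and Cdh5 stood at 13.5 to 29.8 and 19.5 to 35.7 CPM, and Erg at 5.49 to 47.5 CPM. Kdr, Tek, Egfl7 and Vwf did not exceed 9.74 CPM, and Vwf stood at 0.673 to 3.71 CPM. The 6 mesothelial markers had a summed level of 25.3 to 219 CPM. Of these, Krt19 stood at 2.81 to 107 and Upk1b at 6.86 to 98.9 CPM, while Wt1 and Lrrn4 did not exceed 2.57 CPM. Of 10 macrophage markers, Cd68, Csf1r, Lyz2 and Cd14 were present in every library, each at 1.13 CPM or more with Lyz2 highest at up to 12 CPM, while Adgre1, Fcgr1, Itgam and C1qa did not exceed 0.171 CPM and were at 0 in 12 to 14 libraries. Of 5 platelet markers, Itga2b (0.406 to 2.98 CPM) and Gp1ba (0.0977 to 0.752 CPM) were present in every library, and Ppbp was at 0 throughout. Even the closest pair of replicates differed by more than counting noise (chi-square of 2.19 for each degree of freedom). Levels carry the SD of the 3 libraries of a group, and log2 fold changes carry their standard error. A gene passed at a Benjamini-Hochberg adjusted p under 0.05 in edgeR's quasi-likelihood test over all genes tested.

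Itgav (ENSMUSG00000027087) lies on chromosome 2 from 83724397 to 83806916 on the plus strand (GENCODE M21, GRCm38). In unstimulated cells the scramble libraries held 6551, 6434 and 6661 Itgav counts and the siRNA libraries 275, 281 and 317. With TGF-β they held 9439, 10287 and 8149 counts against 456, 538 and 473. With PDGF-BB they held 6078, 6528 and 6897 counts against 391, 520 and 479. The siRNA libraries were far below the scramble libraries in each medium. The log2 fold change of Itgav was -4.39 ± 0.092 in unstimulated cells, -4.28 ± 0.087 with TGF-β and -3.81 ± 0.087 with PDGF-BB (edgeR adjusted p = 4.05e-19, 1.07e-19 and 8.95e-19). Counted from the most lowered gene, Itgav stood at place 16, 8 and 12 of the genes tested. In CPM, 4.77%, 5.16% and 7.13% of the scramble mean remained.

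The remaining Itgav RNA differed between media. The siRNA libraries held 14.8, 14.1 and 16.4 CPM unstimulated, 26.1, 29.7 and 25.3 CPM with TGF-β, and 19.1, 23.9 and 25.5 CPM with PDGF-BB. The unstimulated libraries were the lowest and did not overlap with either stimulated group, and the stimulated groups overlapped each other. The siRNA effect on Itgav was smaller with PDGF-BB than without a stimulus (a log2 difference of 0.58 ± 0.12, edgeR adjusted p = 0.00247), and smaller than with TGF-β (edgeR adjusted p = 0.00445). Between TGF-β and no stimulus the effect differed by 0.11 (95% interval -0.16 to 0.38), which did not pass (edgeR adjusted p = 0.579).

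**Figure D1:**
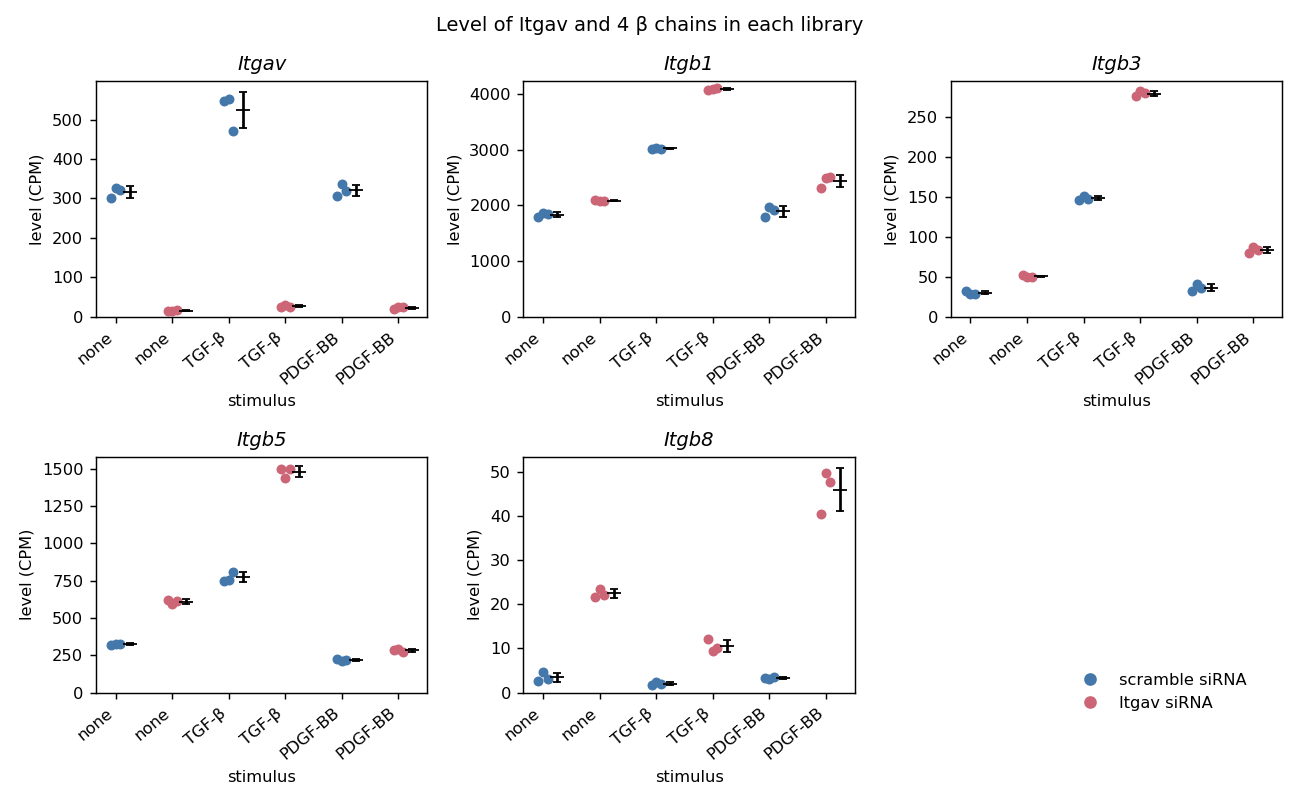
Level of each gene in CPM (vertical axis, from 0, with its own scale per gene) in every library, by stimulus. Blue points are scramble libraries and red points Itgav siRNA libraries, and the bar beside each group gives the mean and SD of its 3 libraries. In each medium the red points lie below the blue ones for Itgav and above them for the 4 β chains.

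All 4 β chains rose with the Itgav siRNA in each of the 3 media. For each chain the scramble and siRNA libraries of the same medium did not overlap. How many of all genes share this was not counted, so it sets none of the chains apart. So many genes changed that a call alone sets no gene apart: 53.4%, 48.4% and 59.3% of genes passed in the unstimulated, TGF-β and PDGF-BB comparisons, and 25.9%, 24.1% and 29.4% passed as higher and 27.5%, 24.3% and 29.9% as lower. The sizes of the rises differed between the chains. In bulk RNA a change in the share of cells that express a gene and a change in its RNA per cell cannot be told apart.

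Itgb8 (ENSMUSG00000025321, chromosome 12, 119158022 to 119238802, minus strand) encodes β8, a chain known for binding latent TGF-β with αV, and it had the largest fold rise of the 4 in each medium. The scramble libraries held 2.61, 4.67 and 3.05 CPM unstimulated, 1.80, 2.31 and 1.97 CPM with TGF-β, and 3.33, 3.19 and 3.56 CPM with PDGF-BB. The siRNA libraries held 21.7, 23.6 and 22.2 CPM, then 12.1, 9.38 and 10.1 CPM, then 40.4, 49.9 and 47.9 CPM. Thus even the lowest siRNA library, in TGF-β, was above every scramble library of any medium. The rises were 6.58-fold unstimulated (2.72 ± 0.14, edgeR adjusted p = 5.48e-13), 5.17-fold with TGF-β (2.37 ± 0.18, adjusted p = 2.13e-10) and 13.7-fold with PDGF-BB (3.77 ± 0.14, adjusted p = 1.18e-15). By log2 fold change Itgb8 stood at place 172, 268 and 111 from the top of the genes tested. These levels are low in counts, with 31 to 92 counts in a scramble library and 170 to 1084 in an siRNA library.

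Itgb3 (ENSMUSG00000020689, chromosome 11, 104608000 to 104670476, plus strand) encodes β3, the chain of the classical vitronectin receptor. Its scramble libraries held 32.3, 29.2 and 29.0 CPM unstimulated, 147, 152 and 148 CPM with TGF-β, and 32.9, 41.6 and 35.7 CPM with PDGF-BB. Its siRNA libraries held 51.9, 50.4 and 50.4 CPM, then 277, 283 and 280.5 CPM, then 80.1, 87.7 and 83.3 CPM. The levels with TGF-β were above those of all other media in both kinds of cells. The siRNA raised Itgb3 1.69-fold unstimulated, 1.88-fold with TGF-β and 2.28-fold with PDGF-BB (log2 0.75 ± 0.066, 0.91 ± 0.056 and 1.19 ± 0.063, edgeR adjusted p = 2.40e-09, 1.02e-11 and 4.96e-13).

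Itgb5 (ENSMUSG00000022817, chromosome 16, 33829665 to 33949338, plus strand) encodes β5, which forms another vitronectin receptor with αV. Its scramble libraries held 319, 328 and 326 CPM unstimulated, 749, 756 and 810.1 CPM with TGF-β, and 225, 212 and 217 CPM with PDGF-BB. Its siRNA libraries held 621, 592 and 614 CPM, then 1499.5, 1435 and 1498 CPM, then 287, 290.5 and 274 CPM. With PDGF-BB even the siRNA libraries stayed below the unstimulated scramble libraries. The rise was 1.88-fold unstimulated and 1.91-fold with TGF-β but 1.30-fold with PDGF-BB (log2 0.91 ± 0.039, 0.94 ± 0.039 and 0.38 ± 0.040, edgeR adjusted p = 2.36e-14, 1.25e-14 and 3.02e-08).

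Itgb1 (ENSMUSG00000025809, chromosome 8, 128685654 to 128733200, plus strand) encodes β1, the chain shared by most matrix-binding integrins, and had the smallest rises in unstimulated cells and with TGF-β. Its scramble libraries held 1787, 1862 and 1851 CPM unstimulated, 3014, 3036 and 3018 CPM with TGF-β, and 1784, 1974 and 1921 CPM with PDGF-BB. Its siRNA libraries held 2099, 2084 and 2071 CPM, then 4066, 4083 and 4112 CPM, then 2317, 2494 and 2504 CPM. The groups were close but separate in each medium. The rises were 1.14-fold, 1.35-fold and 1.29-fold (log2 0.19 ± 0.036, 0.44 ± 0.036 and 0.37 ± 0.036, edgeR adjusted p = 0.000156, 1.09e-09 and 1.34e-08). The log2 rise of Itgb1 with PDGF-BB was close to that of Itgb5 in the same medium, and the pair was not tested against each other.

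Whether the siRNA effect itself differed between media was tested as a difference of log2 fold changes, and the 3 such comparisons share libraries. With PDGF-BB against no stimulus, all 5 genes differed, where 18.8% of genes passed, 9.51% as higher and 9.32% as lower. The rise of Itgb8 was larger with PDGF-BB by 1.05 ± 0.21 (edgeR adjusted p = 0.00145) and that of Itgb3 by 0.44 ± 0.091 (adjusted p = 0.00189), while that of Itgb5 was smaller (-0.53 ± 0.055, adjusted p = 8.90e-07). Between these media the rise of Itgb5 thus changed in the opposite direction to those of Itgb3 and Itgb8. For Itgb1 the difference was 0.18 ± 0.051 (edgeR adjusted p = 0.0162). That call ended without scramble unstimulated replicate 2 or 3, scramble PDGF-BB replicate 1, or siRNA PDGF-BB replicate 2 or 3, with adjusted p from 0.0515 to 0.0627.

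With TGF-β against no stimulus, 1 of the 5 genes differed, where 23.2% of genes passed, 12.2% as higher and 11% as lower. This was Itgb1, whose rise was larger by 0.25 ± 0.051 (edgeR adjusted p = 0.000852). The intervals of the others were -0.03 to 0.34 for Itgb3, -0.09 to 0.15 for Itgb5 and -0.89 to 0.19 for Itgb8, so the precision for Itgb8 was the poorest. Without scramble unstimulated replicate 2, the library with the highest Itgb8 level of its group, the Itgb8 rise was smaller with TGF-β (-0.63, edgeR adjusted p = 0.048), which makes 2 genes. With TGF-β against PDGF-BB, 4 of the 5 differed, where 32.8% passed, 17.4% as higher and 15.4% as lower. Itgb8 rose less with TGF-β (-1.40 ± 0.25, edgeR adjusted p = 0.000172), as did Itgb3 (-0.28 ± 0.084, adjusted p = 0.0138). Itgb5 rose more (0.56 ± 0.055, edgeR adjusted p = 1.15e-07). The fall of Itgav with its siRNA was larger with TGF-β than with PDGF-BB (a log2 difference of -0.47 ± 0.12, edgeR adjusted p = 0.00445).

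**Figure D2:**
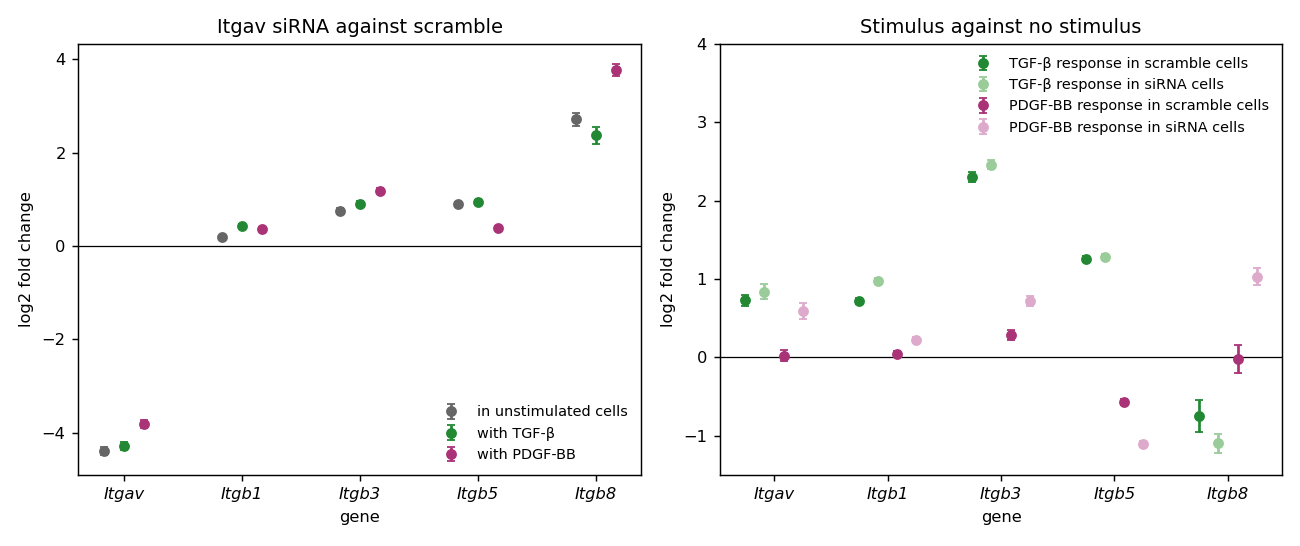
Log2 fold change (vertical axis) of each gene with its standard error, for Itgav siRNA against scramble in each medium on the left and for each stimulus against no stimulus on the right. On the left the β chains lie above 0 and Itgav below, with Itgb8 highest, and on the right Itgb5 and Itgb8 are the genes with values well below 0.

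The stimuli alone also moved these genes in scramble cells. TGF-β raised Itgb3 4.93-fold (log2 2.30 ± 0.063, edgeR adjusted p = 6.50e-18), Itgb5 2.38-fold (1.25 ± 0.039, adjusted p = 6.00e-17), Itgav 1.66-fold and Itgb1 1.65-fold. Itgb8 went the other way (-0.75 ± 0.21, edgeR adjusted p = 0.00473). Leaving out scramble unstimulated replicate 2 ended the Itgb8 call (-0.47, adjusted p = 0.057). All 5 passed, where 48.3% of genes did, 23.4% as higher and 24.8% as lower. The response to PDGF-BB was measured against the same unstimulated libraries, and 2 of the 5 passed, where 36.1% of genes did, 16.9% as higher and 19.2% as lower. Itgb5 fell to 0.672-fold (-0.57 ± 0.040, edgeR adjusted p = 1.21e-10) and Itgb3 rose 1.22-fold (0.28 ± 0.067, adjusted p = 0.00215). The values of the other 3 were 0.02 for Itgav (interval -0.14 to 0.18), 0.05 for Itgb1 (-0.03 to 0.12) and -0.02 for Itgb8 (-0.42 to 0.38). Without scramble PDGF-BB replicate 1 the Itgb1 value passed (0.09, edgeR adjusted p = 0.046).

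In cells with the Itgav siRNA all 5 genes responded to both stimuli, where 57.5% of genes passed for TGF-β (27.9% higher, 29.6% lower) and 36.4% for PDGF-BB (17.2% higher, 19.2% lower). TGF-β raised Itgb3 5.50-fold (log2 2.46 ± 0.061), Itgb5 2.43-fold (1.28 ± 0.039) and Itgb1 1.96-fold (0.97 ± 0.036), and lowered Itgb8 to 0.467-fold (-1.10 ± 0.12, edgeR adjusted p = 8.66e-08). PDGF-BB lowered Itgb5 to 0.466-fold (-1.10 ± 0.039, edgeR adjusted p = 1.41e-15) and raised Itgb8 2.04-fold (1.03 ± 0.11, adjusted p = 9.57e-08) and Itgb3 1.64-fold (0.72 ± 0.061, adjusted p = 3.23e-09). In these cells TGF-β and PDGF-BB thus moved Itgb5 and Itgb8 in opposite directions, Itgb5 up with TGF-β and Itgb8 up with PDGF-BB. The difference between these responses and those of scramble cells is the same test as the difference of the siRNA effect between media.

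Ordered by mean level, Itgb1 and Itgb3 had the same order of groups. From the lowest it ran scramble unstimulated, scramble PDGF-BB, siRNA unstimulated, siRNA PDGF-BB, scramble TGF-β and siRNA TGF-β, and among neighbours only the lowest pair of Itgb1 overlapped. For Itgb5 both PDGF-BB groups came first, scramble before siRNA, then the unstimulated groups and the TGF-β groups in the same way, with no neighbours overlapping. For Itgb8 all scramble groups came first, with PDGF-BB and unstimulated overlapping, followed by siRNA with TGF-β, unstimulated and with PDGF-BB. As a description over the 18 libraries, which share groups and treatments, Pearson's r of log2 CPM was 0.991 between Itgb1 and Itgb3, -0.923 between Itgav and Itgb8, and 0.0014 to 0.115 between Itgb8 and the other β chains.

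To compare levels between genes, counts of each transcript were divided by its length and given as CPM per kilobase. On this scale Itgb1 was the most abundant chain in every group, at 481 ± 10.8 in unstimulated scramble cells and 1072 ± 6.38 in siRNA cells with TGF-β, the extremes of its group means. Itgb5 followed at 75.9 ± 2.64 to 514 ± 13.0, then Itgb3 at 5.22 ± 0.327 to 48.4 ± 0.483 and Itgb8 at 0.253 ± 0.0318 to 5.49 ± 0.587. Itgav stood at 57.8 ± 0.233, 90.9 ± 5.21 and 59.1 ± 0.890 in the unstimulated, TGF-β and PDGF-BB scramble groups and at 2.66 ± 0.457, 4.74 ± 0.372 and 4.11 ± 0.650 in the siRNA groups. In siRNA cells without a stimulus the per-length level of Itgb8 was 2.73 ± 0.122, and its libraries overlapped with those of the remaining Itgav. With TGF-β it was 1.31 ± 0.230, below Itgav in every library. With PDGF-BB its lowest library, at 4.83, was level with the highest Itgav library, at 4.83. These relations depend on the length used. A short Itgav transcript of 463 bases, with a mean of 1.52% of the gene's counts, weighs more per kilobase than in counts. With the length of each gene's most abundant transcript alone, an alternative chosen after seeing the data, Itgb8 lay above Itgav in siRNA cells both without stimulus (2.59 to 2.81 against 2.08 to 2.42) and with PDGF-BB (4.81 to 5.93 against 2.82 to 3.76), and it stayed below Itgav with TGF-β.

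The summed per-length level of Itgb3, Itgb5 and Itgb8 was 2.07 ± 0.0309 times that of Itgav in unstimulated scramble cells and 85.2 ± 15 times in unstimulated siRNA cells. With TGF-β the ratio was 3.28 ± 0.354 and 119 ± 11.7, and with PDGF-BB 1.40 ± 0.0337 and 29.3 ± 4.96. The sum itself was 120 ± 1.49 and 222 ± 6.62 without stimulus, so the fall of Itgav made up most of the shift in the ratio. Within that sum Itgb5 held 95.3% ± 0.280 in unstimulated scramble cells and 94.8% ± 0.183 with the siRNA, and 91.2% in both groups with TGF-β. With PDGF-BB its share was 91.8% ± 1.03 in scramble and 83.1% ± 0.967 in siRNA cells, where Itgb3 held 12.2% ± 0.476 and Itgb8 4.64% ± 0.491. Itgb8 held 0.357% ± 0.126 in unstimulated scramble cells and 1.23% ± 0.0877 with the siRNA. Its large fold rise thus came with a small share of the RNA of these chains. RNA levels do not give the amount of protein or of surface pairs.

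**Figure D3:**
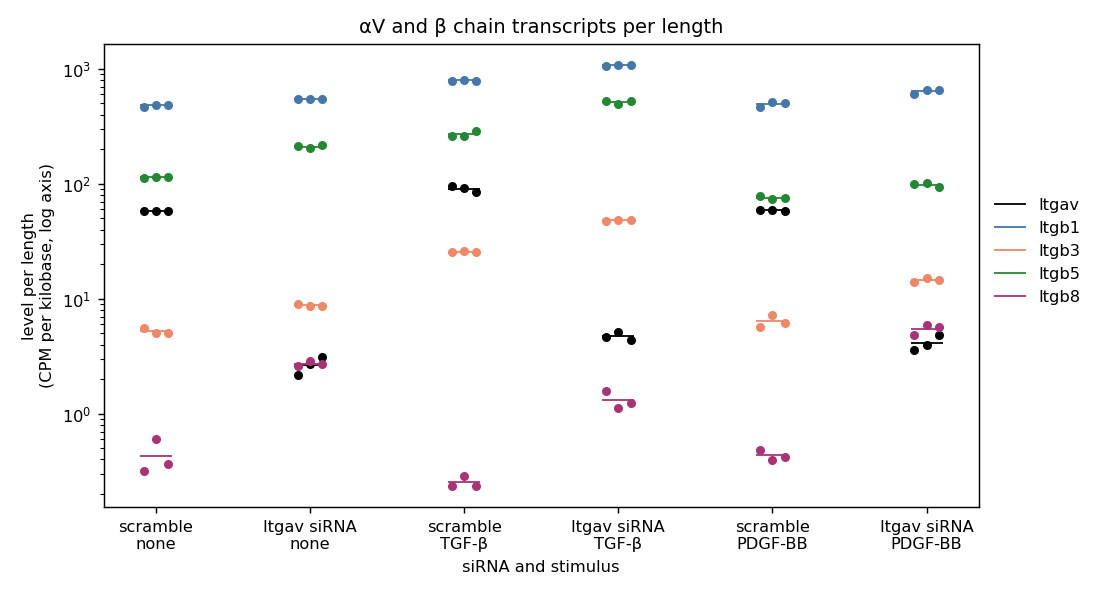
Level per length in CPM per kilobase (vertical log axis) of the 5 genes in each library (points) with the group mean (line), for the 6 groups of siRNA and stimulus. Itgb1 lies at the top in every group, and Itgav lies between Itgb5 and Itgb3 in the scramble groups and below Itgb3 in the siRNA groups.

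The transcript table lists 25 transcripts of the 5 genes, and 12 of them passed the low-count filter. Itgb1, Itgb3 and Itgb8 each had 1 dominant transcript, with a mean share of 99.9%, 99.8% and 98.2% of the gene's counts. Itgav and Itgb5 each had a pair of transcripts above 5%. Itgav-202 held a mean of 58.4% and Itgav-201 39.5%. Itgav-201 has 2 coding exons that Itgav-202 lacks, on the plus strand of GRCm38 at chr2:83761868-83761929 and chr2:83763652-83763697, with 62 and 46 bases. Together they make 108 bases, a multiple of 3, so the reading frame is kept. They are printed 5′ to 3′ from the GENCODE M21 transcripts because the estimate of the share rests partly on reads across them, with the 2 exons in capitals and 15 flanking bases on each side in lower case.
Itgav-201: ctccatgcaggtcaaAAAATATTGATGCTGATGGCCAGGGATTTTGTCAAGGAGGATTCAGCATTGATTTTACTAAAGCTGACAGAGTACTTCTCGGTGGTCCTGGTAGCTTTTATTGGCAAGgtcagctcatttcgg
Itgav-202: ctccatgcaggtcaagtcagctcatttcgg
Itgav-201 also starts further upstream, at 83724397 against 83724555.

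Both Itgav transcripts fell with the siRNA in each medium. Itgav-202 changed by -4.35 ± 0.41, -4.15 ± 0.40 and -4.33 ± 0.41 on the log2 scale without stimulus, with TGF-β and with PDGF-BB, and Itgav-201 by -4.52 ± 0.51, -4.51 ± 0.49 and -3.18 ± 0.47 (edgeR adjusted p from 1.19e-06 to 0.000101). Of all transcripts, 19%, 16% and 23% passed in these comparisons. The 2 less abundant tested transcripts, Itgav-205 and Itgav-206, passed as lower in each medium as well, Itgav-206 with at most 25.6 counts in a library. No Itgav transcript passed in the response of scramble cells to TGF-β, where 17.8% of transcripts did and the gene did too. Itgav-201 stood at 0.87 ± 0.42 (edgeR adjusted p = 0.191) and Itgav-202 at 0.53 ± 0.35 (adjusted p = 0.363).

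The split between the Itgav transcripts varied widely among replicates of the siRNA groups. Itgav-201 held 36.4%, 38.5% and 40.2% of Itgav counts in unstimulated scramble libraries and 29.3%, 21.0% and 54.3% with the siRNA. With TGF-β it held 48.2%, 49.9% and 33.0% in scramble and 61.9%, 30.5% and 22.2% in siRNA libraries. With PDGF-BB it held 30.8%, 34.9% and 31.4% in scramble and 27.6%, 86.1% and 35.5% in siRNA libraries. The siRNA libraries lay on both sides of the scramble libraries in each medium. The 86.1% in siRNA PDGF-BB replicate 2 has an exact Clopper-Pearson 95% interval of 82.9% to 89.0% for 520 counts, which covers counting error only and not the assignment of reads to transcripts. Over all media the Itgav-201 share was 2.80 percentage points higher with the siRNA (40.9% against 38.1%), a difference within the spread (exact two-sided permutation within media, 9 against 9 libraries, adjusted p = 0.768 over 4 transcripts).

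**Figure D4:**
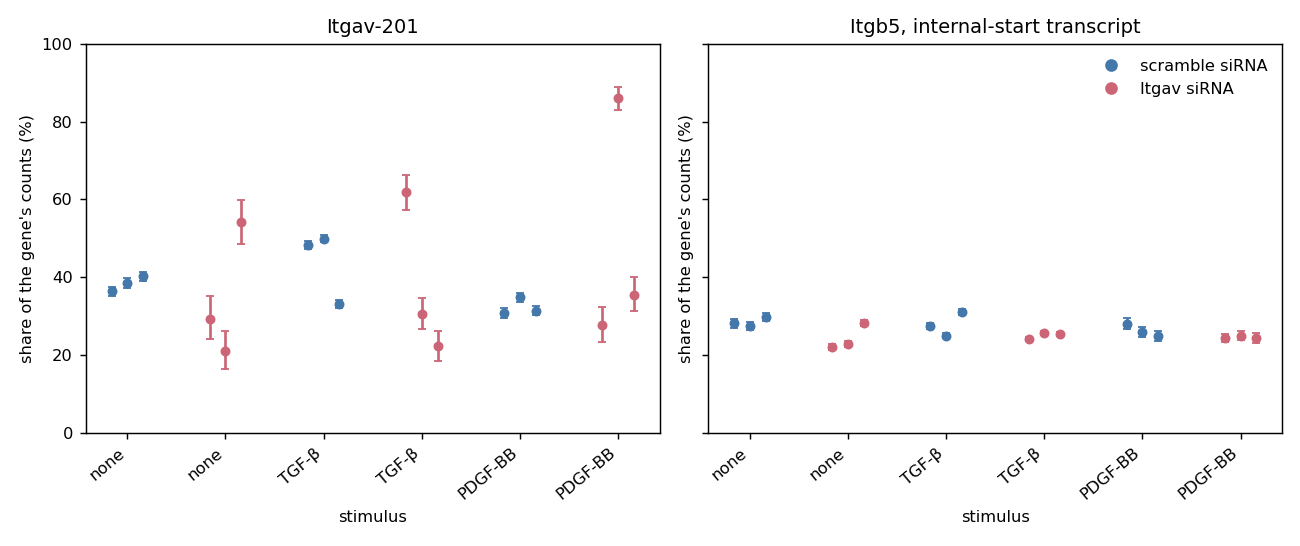
Share of the gene's counts (vertical axis, percent) held by Itgav-201 on the left and the internal-start Itgb5 transcript on the right in each library, by stimulus, with blue points for scramble and red for Itgav siRNA. Bars are exact 95% binomial intervals for counting error, and the red points on the left scatter from 21.0% to 86.1%.

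The long Itgb5 transcript (ENSMUST00000115028) held a mean of 72.0% of Itgb5 counts, and an internal-start transcript (ENSMUST00000232262) held 26.1%. The internal-start transcript begins within the gene at 33891941, and its annotated coding region begins at 33899400 instead of 33829961. The long transcript rose with the siRNA in each medium (log2 0.97 ± 0.043, 0.99 ± 0.042 and 0.37 ± 0.043). The internal-start transcript rose without stimulus (0.66 ± 0.11, edgeR adjusted p = 0.000288) and with TGF-β (0.78 ± 0.11, adjusted p = 6.50e-05) and stood at 0.26 ± 0.11 with PDGF-BB (adjusted p = 0.109). The siRNA effect on the long transcript was smaller with PDGF-BB than without stimulus (-0.60 ± 0.060, edgeR adjusted p = 4.97e-05, where 2.49% of transcripts passed). Against PDGF-BB, TGF-β gave a larger effect for the long (0.62 ± 0.060) and the internal-start transcript (0.52 ± 0.15, edgeR adjusted p = 0.0468), where 7.71% passed. None of the 8 Itgav and Itgb5 transcripts tested passed for the difference between TGF-β and no stimulus, where 5.03% of transcripts did. In scramble cells PDGF-BB lowered the long (-0.53 ± 0.043) and the internal-start transcript (-0.70 ± 0.11), where 8.96% of transcripts passed. In siRNA cells both fell with PDGF-BB (-1.13 ± 0.043 and -1.10 ± 0.11, 10% of transcripts passing) and rose with TGF-β (1.23 ± 0.043 and 1.28 ± 0.11, 22.5% passing).

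The share of the internal-start transcript was 24.7% in siRNA and 27.5% in scramble libraries, lower by 2.83 points (exact two-sided permutation within media, 9 against 9 libraries, adjusted p = 0.036), and that of the long transcript was 2.78 points higher (adjusted p = 0.0395). Both calls ended when any 1 replicate number was left out, with adjusted p of 0.0741 to 0.5. The groups overlapped in each medium. The internal-start transcript held 28.1%, 27.4% and 29.7% in unstimulated scramble and 21.9%, 22.8% and 28.3% in unstimulated siRNA libraries.

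A further transcript with another end (ENSMUST00000069345) was rare, at a mean of 1.86%. It lacks the last 29 bases of exon 14 of the long transcript, at chr16:33947853-33947881 on the plus strand of GRCm38, which is no multiple of 3, and its coding region ends at 33948829 instead of 33948749, so the end of the encoded β5 chain differs. These bases are shown 5′ to 3′ in capitals, with 15 flanking bases on each side, because they separate the rare form from the main one.
Itgb5 long transcript: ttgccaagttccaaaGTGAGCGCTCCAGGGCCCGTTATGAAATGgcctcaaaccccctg
Itgb5 rare transcript: ttgccaagttccaaagcctcaaaccccctg
With PDGF-BB the rare transcript rose with the siRNA (1.02 ± 0.25, edgeR adjusted p = 0.00796), from 44.0, 60.6 and 87.1 estimated counts in scramble to 122, 178 and 100.1 in siRNA libraries. Without stimulus it stood at 0.59 ± 0.25 (adjusted p = 0.122) and with TGF-β at 0.54 ± 0.24 (adjusted p = 0.178).

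Among other β chains, Itgb2, the leukocyte chain, rose with the siRNA in each medium, by 2.55, 2.52 and 2.99 on the log2 scale, but its group means did not exceed 2.40 CPM. Itgb4, the chain of hemidesmosomes, and Itgbl1, an integrin-like secreted protein, also rose without stimulus (0.60 and 0.43), and Itgbl1 also with PDGF-BB (0.36), while it was lower with TGF-β (-0.25). The Itgb4 call ended without scramble unstimulated replicate 2 or 3 or siRNA unstimulated replicate 1 (edgeR adjusted p = 0.0638 to 0.146). Of these 3, 3, 1 and 2 passed as higher, and with a minimum mean of 1 CPM the counts with TGF-β and PDGF-BB were 0 and 1. Of 12 α chains tested, 5, 3 and 8 passed as higher and 3, 4 and 2 as lower in the unstimulated, TGF-β and PDGF-BB comparisons, with medians of 0.03, 0.07 and 0.54 beside about 0.01 for all genes. Among all genes 25.9%, 24.1% and 29.4% passed as higher and 27.5%, 24.3% and 29.9% as lower. Without scramble TGF-β replicate 2 the 4 that were lower with TGF-β became 2. Itga2, a collagen-binding chain that pairs with β1, rose in each medium (0.58 ± 0.095, 1.64 ± 0.080 and 1.38 ± 0.096), and Itga3, a laminin-binding partner of β1, fell in each (-0.53, -0.81 and -0.81).

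Most genes of the proteins that link integrins to actin and to signalling fell with the siRNA. Of 23 such cytoplasmic adaptors tested, 17, 14 and 18 passed as lower in the unstimulated, TGF-β and PDGF-BB comparisons and 3, 1 and 0 as higher, with medians of -0.40, -0.25 and -0.56. Among all genes 27.5%, 24.3% and 29.9% passed as lower and 25.9%, 24.1% and 29.4% as higher. With TGF-β the count higher was 2 without scramble TGF-β replicate 1 and 3 with a minimum mean of 1 CPM. Fermt2, which encodes kindlin-2, an activator that binds β tails, fell by 1.20, 0.75 and 1.20 on the log2 scale. Actn4, an actin crosslinker at adhesions, fell by 1.06, 0.84 and 1.22, and Parva, a partner of integrin-linked kinase, by 0.76, 0.90 and 1.08. Of 14 genes of integrin trafficking, 11, 8 and 10 passed as lower and 2, 1 and 1 as higher, the last being 2 without scramble PDGF-BB replicate 3. Rab21, a small GTPase that binds integrin α chains and directs their recycling, fell most of the 3 named here (-1.69 ± 0.048, -1.42 ± 0.047 and -1.44 ± 0.047). Cav1, which encodes the caveolar coat protein, fell by 0.57, 0.47 and 0.54 on the log2 scale, and Snx17, a retrieval factor that binds β tails, by 0.42, 0.31 and 0.68.

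The ligand side was mixed. Of 17 αV ligands tested, 8, 8 and 11 passed as higher and 6, 4 and 4 as lower. Among all genes 25.9%, 24.1% and 29.4% passed as higher and 27.5%, 24.3% and 29.9% as lower. Spp1, which encodes osteopontin, rose by 0.29 without stimulus, 2.72 with TGF-β and 1.77 with PDGF-BB, and Postn, which encodes periostin, by 0.96, 2.31 and 1.39. Ccn1, a matricellular ligand, fell by 0.71, 0.26 and 1.72 on the log2 scale. Vtn, which encodes vitronectin, had at most 4 counts in a library and was not tested. Of 8 genes of latent TGF-β complexes and their carriers, 4, 7 and 4 passed as higher and 3, 1 and 2 as lower. Tgfb1 rose (0.91, 2.11 and 0.79), as did Ltbp1, which tethers the latent complex to the matrix (0.73, 0.40 and 0.58), and Tgfb2 fell by 0.79, 1.12 and 0.61.

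Other genes moved with the same groups of libraries. The counts below stand beside 25.9%, 24.1% and 29.4% of all genes that passed as higher and 27.5%, 24.3% and 29.9% as lower. All 19 interferon response genes tested were higher with the siRNA in each medium, with medians of 4.21, 2.99 and 4.71. Their summed level was 345 to 706 CPM in unstimulated scramble and 8605 to 9848 CPM in siRNA libraries, 245 to 290 against 1355 to 1397 CPM with TGF-β, and 359 to 395 against 5489 to 8010 CPM with PDGF-BB. Rsad2, an antiviral interferon-induced gene, rose by 7.19 on the log2 scale without stimulus. Of the 8 smooth muscle markers, 6, 8 and 6 were lower and 1, 0 and 1 higher with the siRNA, and their summed level was 1027 to 1147 CPM against 2103 to 2157 CPM without stimulus, 3254 to 3416 against 6631 to 7181 CPM with TGF-β, and 411 to 421 against 979 to 1007 CPM with PDGF-BB. Of 10 adventitial fibroblast markers, 7, 3 and 6 were higher and 1, 2 and 1 lower, with a summed level of 840 to 905 CPM in scramble and 1045 to 1074 CPM in siRNA libraries without stimulus. With TGF-β their sum was lower in siRNA libraries, at 809 to 871 against 887 to 962 CPM, and with PDGF-BB it was higher, at 1122 to 1173 against 974 to 1067 CPM. These sums rest mostly on Gsn, which alone held 683 to 993 CPM over all libraries. The next highest fibroblast marker, Cd34, reached 130 CPM. Of 10 endothelial markers, 1, 1 and 0 were higher and 4, 2 and 6 lower. Of 5 macrophage markers tested, 1 was higher in each medium and 2, 0 and 1 lower. Of 6 mesothelial markers, 0, 1 and 0 were higher and 3, 3 and 4 lower. Of 2 platelet markers tested, none was higher and 0, 0 and 1 lower. The part of these genes and cell types in the rise of the β chains was not tested.

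The 3 genes whose log2 CPM followed each member most closely over the 18 libraries were taken from the 10435 candidates averaging 5 CPM or more. For Itgav they were Rab21 (Pearson's r = 0.995), Ube2q1 (0.992) and Armcx2 (0.992), and Rab21 stood at 222 ± 1.97 CPM in unstimulated scramble and 69.1 ± 1.22 CPM in siRNA cells. For Itgb1 they were Uso1, Arcn1 and Postn (0.991 to 0.992), and for Itgb3 Bmper (0.994), Itgb1 and Chpf2. For Itgb5 they were Ltbp4 (0.980), Arhgef6 and Foxo1, and for Itgb8 Kdm3a (0.990), Gclc and Fgfr1. With 6 groups that differ strongly, such values describe shared group means more than variation between replicates.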

How the data were processed

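RNA-seq of 18 libraries in 6 groups was used. Per the submitters' processing notes, HISAT2 2.2.1, StringTie 2.1.6 and mm10 were used, and the authors deposited estimated counts per gene (57180) and per transcript (149132), of which 76.2% of gene values above 0 were whole. The sources used here give neither the annotation release nor the strand setting. Gm13684 and Dnmt3l-ps1 overlap Itgav on the opposite strand, so their reads cannot be told apart without strand. Transcript names, lengths and sequences come from GENCODE M21 (GRCm38), in which all 25 transcripts were found. Per-length levels divide each transcript's counts by its length.

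Counts were rounded and fitted over all libraries in edgeR 4.0.16 with TMM (factors 0.925 to 1.07), filterByExpr at a minimum count of 10, a mean per group and 12 residual degrees of freedom. The common biological coefficient of variation came to 6.01%, and Benjamini-Hochberg adjustment ran over 15832 genes or 39762 transcripts. The standard error is the log2 fold change divided by the square root of the F statistic. Transcript shares were tested by exact permutation within media over 8000 arrangements (smallest p 0.00025) for the 4 transcripts above 5%. These form a pair for Itgav and a pair for Itgb5, and the shares within a pair nearly mirror each other. The script was tested on simulated data in which far fewer genes changed than here, which checks the code only. Software was R 4.3.3 with DESeq2 1.42.0 and limma 3.58.1, and Python 3.11.15 with scipy 1.17.1, numpy 2.4.6, matplotlib 3.10.9 and pandas 2.3.3.

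The members, lists and tests were chosen with earlier results of these data known. Lists were written from general knowledge. Named were the members, up to 3 called genes per list with the smallest p over the siRNA effects, and the 3 genes most like each member. Vtn and the cell type markers given by name were named after their values were seen. Alternatives were no low-count filter, a minimum mean of 1 CPM, size factors from DESeq2, a replicate block, DESeq2 itself, only the groups compared, summed transcript counts and leaving out each library. Another length per gene and repeats of the likeness ranking were added after seeing the data.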

Additional observations from a re-analysis of the deposited data

Results flagged for a closer look

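Each value here is a difference of the siRNA effect between media that passed edgeR's quasi-likelihood test of the difference itself (Benjamini-Hochberg adjusted p under 0.05), on the log2 scale. PDGF-BB against no stimulus gave 1.05 for Itgb8, 0.58 for Itgav, 0.44 for Itgb3, 0.18 for Itgb1 and -0.53 for Itgb5. TGF-β against no stimulus gave 0.25 for Itgb1. TGF-β against PDGF-BB gave -1.40 for Itgb8, -0.47 for Itgav, -0.28 for Itgb3 and 0.56 for Itgb5. The 3 comparisons share libraries, so these values are not independent of each other.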

How the results depend on the processing

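Of 740 alternative values of the members' log2 fold changes, 732 kept their direction and their side of the threshold, and none reversed with a call. The 8 others all came from leaving out 1 library, concerned Itgb1 and Itgb8, and are given with their results. With 1 library left out, the number of members called was 1 to 2 for the difference between TGF-β and no stimulus, 4 to 5 for that between PDGF-BB and no stimulus, 4 to 5 for the TGF-β response and 2 to 3 for the PDGF-BB response of scramble cells, and it did not change in the other 6 comparisons. The number of transcript shares called was 2, also per kilobase, both of Itgb5 and not independent of each other. That number was 0 to 0 without any 1 replicate number, where 216 arrangements remain and the smallest p is 0.00926. The numbers of genes called stayed within 1.5 times in all alternatives, for example 7732 to 8687 for the siRNA effect in unstimulated cells. With the length of the most abundant transcript alone, 11 of 30 group levels per length moved by over 1 SD, and the ratio of the 3 β chains to Itgav without stimulus was 2.24 in scramble and 88.9 in siRNA cells (an alternative chosen after seeing the data).

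Deviations of same-numbered libraries correlated at -0.044 to 0.097, which does not settle whether the replicate numbers mark paired libraries. A block for the replicate number gave more called genes in each of the 10 comparisons. With a block for the replicate number, the difference of the siRNA effect between PDGF-BB and no stimulus was called for 3349 genes in place of 2981, and the siRNA effect without stimulus for 8582 in place of 8457. The counts of members called were the same in the 10 comparisons.

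Depth limits Itgb8 most, with as few as 31 counts in a scramble library, and the Itgav transcripts in siRNA cells, with 275 to 538 counts for the gene.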
